A study of Mus musculus with 33 samples.

Results

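Genes of fatty acid uptake and oxidation were followed in mouse interscapular brown fat, the heat-producing depot between the shoulder blades. The set was a list of 32 genes, given by symbol and divided by step into uptake and activation (6 genes), the carnitine shuttle (5), mitochondrial oxidation (14), peroxisomal oxidation (4), and thioesterases with the fuel switch enzyme Pdk4 (3). A gene was measured where a probe carrying its symbol had a detection p-value under 0.01 on at least 3 of the 33 arrays, and its brightest such probe stood for it. By that rule 30 of the 32 were measured, among 9630 genes in all. Acsl1, a long-chain acyl-CoA synthetase, had no annotated probe here, and both probes of Cpt1a, the liver form of carnitine palmitoyltransferase 1, were detected on 0 arrays.

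All mice were C57BL/6J, kept 1 to a cage at 24 °C under a 12-hour light cycle. Normal diet mice ate the AIN-76 semi-purified diet and were sampled at weeks 0, 2, 4, 8, 20 and 24. High-fat mice ate AIN-76 with 39.2 kcal% fat (20% fat and 1% cholesterol by the labels) and were sampled at weeks 2, 4, 8, 20 and 24. Each of the 11 groups had 3 arrays. Every sample is labelled as 7 weeks of age. Nothing in the labels says whether replicates came from different animals, and p-values therefore cover only the variation among these arrays, which may be technical. The series title names the effect of high-fat feeding on brown fat as its subject.

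Brown fat burns fatty acids for heat. Lipoprotein lipase frees them from circulating triglyceride, carriers and acyl-CoA synthetases bring them in and activate them, and the carnitine shuttle moves long chains into mitochondria. There a 4-step cycle of dehydrogenation, hydration, dehydrogenation and thiolysis shortens the chain, while peroxisomes start on very long chains and thioesterases split acyl-CoA back to free acid. Many of these genes are known targets of the peroxisome proliferator-activated receptors, which bind as partners of RXR to 2 copies of AGGTCA with 1 base between them.

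The stretches before the annotated starts of a few members show how far that motif is present close to the genes described below. Sequences are RefSeq's on GRCm38.p6, the 250 bases just before an annotated transcript start, 5′ to 3′ on the gene's strand. A table of such stretches matched 26 of the 32 members. For 20 of the 26 a stretch ended at the outer end of the annotated gene, and for the other 6 each stretch preceded a start further inside it. Both strands were searched for 2 copies of AGGTCA in direct repeat with 1 base between, with up to 2 mismatches in the 12 letters. A match was found for 3 of the 26 members, at Etfa, Echs1 and Cd36 (the last before a start 53063 bases inside the gene). By stretches, it was found in 3 of the members' 29 and in 3.24% of all 32851. Capitals mark the match. Etfa lies at chr9:55512244-55512493 and Echs1 at chr7:140116422-140116671, both on the minus strand. Both rose on the high-fat diet after quantile normalization, but neither passed after the median shift described below. Their matches began 77 and 83 bases before the start, on the opposite strand for Etfa and on the gene's strand for Echs1.
Etfa: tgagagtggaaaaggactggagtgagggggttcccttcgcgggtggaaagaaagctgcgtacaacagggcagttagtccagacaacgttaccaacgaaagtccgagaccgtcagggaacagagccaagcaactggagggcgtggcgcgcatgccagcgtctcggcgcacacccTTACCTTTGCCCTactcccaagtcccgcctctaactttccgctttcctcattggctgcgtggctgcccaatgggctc
Echs1: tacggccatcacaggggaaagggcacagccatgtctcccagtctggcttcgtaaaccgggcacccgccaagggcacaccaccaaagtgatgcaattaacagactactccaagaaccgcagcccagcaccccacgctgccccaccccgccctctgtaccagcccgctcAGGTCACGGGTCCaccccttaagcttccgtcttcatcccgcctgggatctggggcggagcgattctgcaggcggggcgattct

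Acot1 and Acsl5 had the largest falls on the high-fat diet, and Acot2, a neighbour of Acot1 on chromosome 12, did not pass the test. They are shown as a contrast in response, and none of the 3 held the motif. Acot1 lies at chr12:84009252-84009501, Acot2 at chr12:83987611-83987860 and Acsl5 at chr19:55253119-55253368, all on the plus strand. The Acsl5 stretch precedes a start 1508 bases inside the annotated gene. Read base by base from the start with no gaps, the stretches of Acot1 and Acot2 shared 65 of 250 bases.
Acot1: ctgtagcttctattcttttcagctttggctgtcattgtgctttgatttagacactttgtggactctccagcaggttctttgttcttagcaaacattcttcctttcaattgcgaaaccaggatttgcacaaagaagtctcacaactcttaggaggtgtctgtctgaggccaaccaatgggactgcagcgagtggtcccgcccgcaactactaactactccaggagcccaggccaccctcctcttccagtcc
Acot2: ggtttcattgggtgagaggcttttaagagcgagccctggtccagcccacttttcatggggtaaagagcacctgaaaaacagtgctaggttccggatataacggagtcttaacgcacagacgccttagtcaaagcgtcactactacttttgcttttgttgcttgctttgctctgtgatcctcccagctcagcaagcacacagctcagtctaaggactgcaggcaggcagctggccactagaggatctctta
Acsl5: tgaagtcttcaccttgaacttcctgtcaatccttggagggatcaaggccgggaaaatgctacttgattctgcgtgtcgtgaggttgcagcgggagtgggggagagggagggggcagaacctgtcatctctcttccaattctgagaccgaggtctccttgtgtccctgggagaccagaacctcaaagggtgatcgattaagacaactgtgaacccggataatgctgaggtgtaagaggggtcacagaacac

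Hadha and Hadhb encode the alpha and beta subunits of the mitochondrial trifunctional protein and are transcribed away from each other, with 272 bases between their annotated starts. Most of that gap is the stretch before Hadhb, at chr5:30155003-30155252 on the plus strand, shown because the pair share it and yet differed over the weeks. It held no match to the motif.
Hadhb: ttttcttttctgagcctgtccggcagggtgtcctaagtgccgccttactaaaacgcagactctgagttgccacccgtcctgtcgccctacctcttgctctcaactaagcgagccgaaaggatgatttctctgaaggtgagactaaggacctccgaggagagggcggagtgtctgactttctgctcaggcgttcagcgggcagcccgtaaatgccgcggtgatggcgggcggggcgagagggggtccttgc

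Values below are log2 intensities after background correction and quantile normalization, on a scale that ended at 16.1. A level belongs to its probe and was not set against that of another gene. Of the 30 measured members 29 were detected on 33 of 33 arrays. The tissue label was checked against brown fat markers. Ucp1, the uncoupling protein of brown fat mitochondria, averaged 15.5, Cidea, a lipid droplet protein, averaged 15.7, and 10 of 13 listed markers were measured. Array medians ran from 129 to 183 before normalization, and 29.5% to 33.7% of probes were detected per array. The 6 week 24 arrays lay away from the other 27 on the first principal component (35.9% of variance), at 33.5 to 46.7 against -16.8 to 3.86. Their raw medians were also the lowest, at 129 to 133. Whether a difference in array handling lay behind this was not tested, so counts of members called, and the calls lost without week 24 in the diet average and between weeks 0 and 24, are also given without it. In bulk tissue, fewer cells of a type and less RNA per cell cannot be told apart.

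On average over the 5 shared weeks, the high-fat diet went with small rises in the carnitine shuttle and in mitochondrial oxidation and with larger falls in Acot1 and Acsl5, but the rises depended on how arrays were scaled. After quantile normalization 17 of 30 members passed limma's moderated t test at an adjusted p under 0.05, 14 higher and 3 lower, and 13 did not pass. Over all genes 27.1% passed, 15.4% higher and 11.7% lower. The members' median difference was 0.13 log2 units and that of all genes 0.00. With a median shift of each array in place of quantile normalization, 0 members rose and 4 fell (0 members rose at an unadjusted p under 0.05 either). Of all 9630 genes 790 then rose and 2312 fell. The members' median was 0.00 and that of all genes -0.07. The shift lined up array medians over all 45281 probes, of which only 29.5% to 33.7% were detected per array. Those medians therefore lay among probes not detected, and which scaling serves these members better was not tested. The share of all called genes that were higher was 57% after quantile normalization and 25.5% after the median shift. The falls of Acot1, Acsl5 and Acaa1a passed under both scalings. Without week 24, 12 members passed, 10 higher and 2 lower, and 11 of these were among the 17. Of all 9630 genes 808 were then higher and 662 lower.

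**Figure D1:**
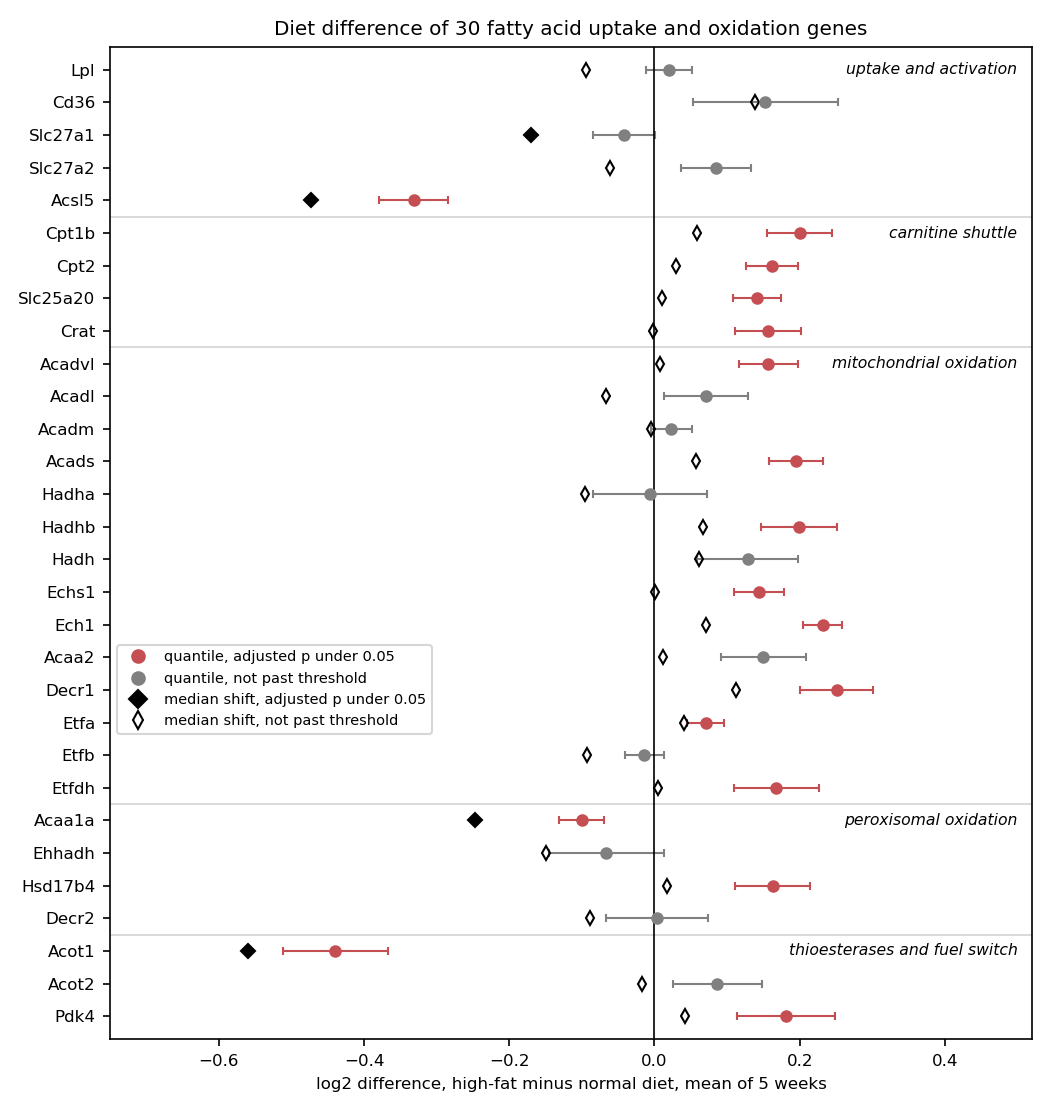
Diet difference of each measured gene, in log2 units (high-fat minus normal diet, mean of 5 weeks), for 30 genes ordered by step. Circles with standard errors are after quantile normalization (red where adjusted p was under 0.05), and diamonds are after a median shift (filled where under 0.05). The 14 red circles right of 0 all have open diamonds, while Acsl5, Acaa1a and Acot1 lie left of 0 with both symbols filled.

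Uptake and activation had 5 measured genes, of which 1 passed. Acsl5, an acyl-CoA synthetase, ran from 13.7 to 14.6 with a median of 14.0 on the 15 normal diet arrays of weeks 2 to 24, and from 13.4 to 13.9 with a median of 13.7 on the 15 high-fat arrays. The ranges overlapped, and all 3 high-fat arrays lay below all 3 normal diet arrays at 2 of the 5 weeks. The fall was 0.33 log2 units on average (0.79-fold, SE 0.05, limma adjusted p = 9.39e-06), with the high-fat mean lower at 5 of 5 weeks. Without week 24 the difference of Acsl5 was -0.20 and still passed. Its dimmer probes, fitted across all 17243 probes, gave -0.45 and -0.36. Lpl, the lipase that feeds the cells, sat close to the top of the scale, from 15.70 to 15.99 on normal diet and 15.72 to 15.94 on high-fat diet, where differences are hard to read (0.02, SE 0.03, adjusted p = 0.693). Slc27a1, a fatty acid transport protein, averaged -0.04 (SE 0.04, adjusted p = 0.508), with weekly differences of both signs, and after the median shift it fell by 0.17 (adjusted p = 0.0235). Slc27a2, another transport protein with acyl-CoA synthetase activity, differed by 0.08 (SE 0.05, adjusted p = 0.201).

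Cd36, the fatty acid translocase, was at the limit of detection on its only probe. It was detected on 3 of 33 arrays, 1 each in the high-fat groups of weeks 8 and 20 and the normal diet group of week 20, where those arrays read 6.58, 6.50 and 6.18. All other arrays were between 4.96 and 5.95. No fold change is given for it, its diet difference did not pass (adjusted p = 0.274), and its F test over high-fat weeks (adjusted p = 0.00289) rests on values not well above background.

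All 4 measured genes of the carnitine shuttle were higher on the high-fat diet after quantile normalization, and none of the 4 passed after the median shift, where Crat turned to -0.0020. Cpt1b, the muscle and brown fat form of the enzyme that makes acylcarnitine, ran from 13.4 to 14.0 (median 13.8) on normal diet and 13.8 to 14.3 (median 14.0) on high-fat diet. It rose by 0.20 (1.15-fold, SE 0.04, limma adjusted p = 0.00145), and its dimmer probe gave the same 0.20. Cpt2, which returns acylcarnitine to acyl-CoA inside the mitochondrion, ran from 14.10 to 14.55 (median 14.41) on normal diet and 14.44 to 14.82 (median 14.55) on high-fat diet, and rose by 0.16 (1.12-fold, SE 0.04, adjusted p = 0.00115). All 3 high-fat arrays lay above all 3 normal diet arrays at 4 of 5 weeks for Cpt2 and also for Slc25a20, the carnitine-acylcarnitine carrier. Slc25a20 ran from 14.99 to 15.37 (median 15.11) on normal diet and 15.18 to 15.47 (median 15.27) on high-fat diet and rose by 0.14 (SE 0.03, adjusted p = 0.00207), but its dimmer probe gave 0.03 (adjusted p = 0.769 across all probes). Crat, carnitine acetyltransferase, rose by 0.16 (SE 0.05, adjusted p = 0.0112) on its brightest probe while its other probes gave 0.06 and -0.04. Taking the mean of a gene's probes, Slc25a20 and Crat did not pass, and without week 24 the difference of Slc25a20 was 0.11 (adjusted p = 0.0503).

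Mitochondrial oxidation had 14 measured genes, of which 8 passed, all 8 of them higher after quantile normalization and none of them passing after the median shift. Ech1, an auxiliary isomerase for unsaturated chains, had the smallest p. On normal diet its arrays read 15.52, 15.49 and 15.47 at week 2, 15.51, 15.49 and 15.60 at week 4, 15.52, 15.64 and 15.55 at week 8, 15.60, 15.69 and 15.65 at week 20, and 15.51, 15.49 and 15.52 at week 24. On high-fat diet they read 15.70, 15.72 and 15.67, then 15.75, 15.78 and 15.74, then 15.80, 15.77 and 15.76, then 15.82, 15.90 and 15.82, and at week 24 15.78, 15.85 and 15.88. All 3 high-fat arrays lay above all 3 normal diet arrays at each of the 5 weeks. The rise was 0.23 (1.17-fold, SE 0.03, limma adjusted p = 3.61e-07), and 0.07 (adjusted p = 0.149) after the median shift.

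Decr1, the reductase that lets unsaturated fatty acids enter the cycle, ran from 12.1 to 13.1 (median 12.4) on normal diet and 12.3 to 13.2 (median 12.6) on high-fat diet, and rose by 0.25 (1.19-fold, SE 0.05, adjusted p = 0.000457). Acads, the short-chain acyl-CoA dehydrogenase, ran from 12.9 to 13.1 (median 13.0) on normal diet and 13.0 to 13.4 (median 13.2) on high-fat diet, and rose by 0.20 (SE 0.04, adjusted p = 0.000308). Both were higher in the high-fat mean at 5 of 5 weeks.

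The other 5 genes of the mitochondrial group that passed were Hadhb (0.20), Etfdh (0.17), which passes electrons to ubiquinone, Acadvl (0.16), the very long-chain acyl-CoA dehydrogenase, the hydratase Echs1 (0.14) and Etfa (0.07), a subunit of the electron transfer flavoprotein. Etfa was close to the top of the scale, at 15.83 to 16.04 on normal diet and 15.98 to 16.07 on high-fat diet, and its dimmer probes gave larger rises of 0.29 and 0.30. The calls of Etfa and Etfdh were lost in 25 and 11 of 43 other settings. Without week 24 Etfa (0.05, adjusted p = 0.320) and Etfdh (0.16, adjusted p = 0.110) did not pass. The hydratase Echs1 had a dimmer probe that gave -0.08 (adjusted p = 0.426), and its call was lost with the mean of its probes. The 6 that did not pass were Acaa2 (0.15, SE 0.06, adjusted p = 0.0576), a thiolase, Hadh (0.13), the short-chain hydroxyacyl-CoA dehydrogenase, Acadl (0.07) and Acadm (0.02), the long-chain and medium-chain dehydrogenases, Hadha (-0.01) and Etfb (-0.01), the partner subunit of Etfa. Acadm, at 15.73 to 16.08, and Etfb, at 15.83 to 16.08, were as close to the top of the scale as Etfa and Lpl, and their differences are as hard to read.

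Of 4 peroxisomal genes 1 rose and 1 fell. Acaa1a, a peroxisomal thiolase, ran from 13.2 to 13.8 (median 13.3) on normal diet and 13.1 to 13.5 (median 13.3) on high-fat diet. All 3 high-fat arrays lay below all 3 normal diet arrays at 3 of 5 weeks, and it fell by 0.10 (0.93-fold, SE 0.03, adjusted p = 0.0178); without week 24 it did not pass (adjusted p = 0.146). Hsd17b4, the bifunctional enzyme of branched and very long chains, ran from 13.7 to 14.1 (median 13.9) on normal diet and 13.7 to 14.4 (median 13.9) on high-fat diet, and rose by 0.16 (SE 0.05, adjusted p = 0.0208) after quantile normalization but not after the median shift (0.02) or without week 24. Ehhadh, the other bifunctional enzyme (-0.07, SE 0.08), and Decr2, the peroxisomal dienoyl-CoA reductase (0.00, SE 0.07), did not pass.

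Among the thioesterases and Pdk4, Acot1 fell, Pdk4 rose and Acot2 did not pass. Acot1 is a cytosolic acyl-CoA thioesterase and Acot2 its mitochondrial relative. Acot1 ran from 11.7 to 12.6 (median 12.2) on normal diet and 10.8 to 12.6 (median 11.8) on high-fat diet, and its average fall was 0.44 (0.74-fold, SE 0.07, limma adjusted p = 6.05e-05). It fell by 0.56 after the median shift and by 0.28 (adjusted p = 0.0197) without week 24. Acot2 differed by 0.09 (SE 0.06, adjusted p = 0.312), with arrays from 9.88 to 10.7 on normal diet and 9.87 to 10.9 on high-fat diet. The Acot genes are close relatives, and no probe sequence was used here to check how well their probes tell them apart. Pdk4, the kinase that switches off pyruvate dehydrogenase and so spares glucose, ran from 14.2 to 15.1 (median 14.8) on normal diet and 14.6 to 15.7 (median 15.002) on high-fat diet. Its rise of 0.18 (SE 0.07, adjusted p = 0.0466) lay at the threshold and was lost in 30 of 43 other settings. Without week 24 it was 0.16 (adjusted p = 0.134).

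Markers of other cells moved with the diet. Of 13 measured macrophage markers (18 listed) 12 were higher in the diet average, as were 12 of 15 endothelial markers and 6 of 7 white adipocyte markers (12 listed). Some measured markers were detected on few arrays: Mest and Sfrp5 on 3 each and Hoxc8 on 6 (white adipocyte), and Trem2 on 10 (macrophage). The white adipocyte count therefore rests in part on values not well above background. Of 17 measured skeletal muscle markers (20 listed) 1, Mb, was higher, and the muscle list's mean varied from 8.42 to 11.6 between single arrays. With that muscle mean as a covariate 15 members passed, and all 15 were among the 17. The part of the other lists in the members' results was not tested.

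At single weeks few members passed before week 24. At week 2 and at week 4, 0 of 30 members passed limma's test (4 and 3 at an unadjusted p under 0.05), where 1.9% and 1.19% of all genes passed. The members' median differences were 0.11 and 0.12 log2 units, with all genes at 0.00 and -0.01. Ech1 came closest, with rises of 0.20 (adjusted p = 0.0773) and 0.22 (adjusted p = 0.06).

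At week 8, 1 member passed, against 2.1% of all genes. Hadh read 8.33, 8.18 and 8.25 on normal diet and 9.18, 8.93 and 8.70 on high-fat diet, with no overlap. The rise was 0.68 (1.60-fold, SE 0.16, limma adjusted p = 0.0218). The call was lost after the median shift (0.34, adjusted p = 0.162), with array weights, with the 6 arrays of week 8 alone, and when any 1 of the 3 normal diet arrays of week 8 or the first high-fat array was left out. That high-fat array stood apart for many members, with the highest value of its group for Cpt1b (14.26 against 13.96 and 13.82), Hsd17b4 (14.43 against 13.90 and 13.71) and Decr1 (13.07 against 12.59 and 12.49). Scaling mattered most at this week: the median shift moved the median of all genes from 0.00 to -0.31, and the share of called genes that were higher from 44.1% to 0.913%. The members' median difference moved from 0.20 to -0.18. With the shift 5 members were called lower and 0 higher, where of all 9630 genes 3691 were lower and 34 higher.

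At week 20 the only member that passed was Acot1, against 4.66% of all genes. Its arrays read 12.43, 12.37 and 12.12 on normal diet and 11.54, 11.09 and 11.19 on high-fat diet, a gap with no overlap. The fall was 1.04 log2 units (0.49-fold, SE 0.16, limma adjusted p = 0.000405). At earlier weeks the diets overlapped. Normal diet arrays read 12.25, 12.53 and 12.56 at week 2 and high-fat arrays 12.62, 12.64 and 12.47, and at week 4 they read 11.70, 12.14 and 12.35 against 12.16, 12.02 and 11.78. At week 8 they read 12.36, 11.93 and 11.95 against 11.89, 11.74 and 12.17, again overlapping. Without the first high-fat array of week 8, 5 members passed at week 20. The share of all called genes that were higher at week 20 was 65.3%, and 14.2% after the median shift, with the Acot1 call kept in all 44 other settings.

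**Figure D2:**
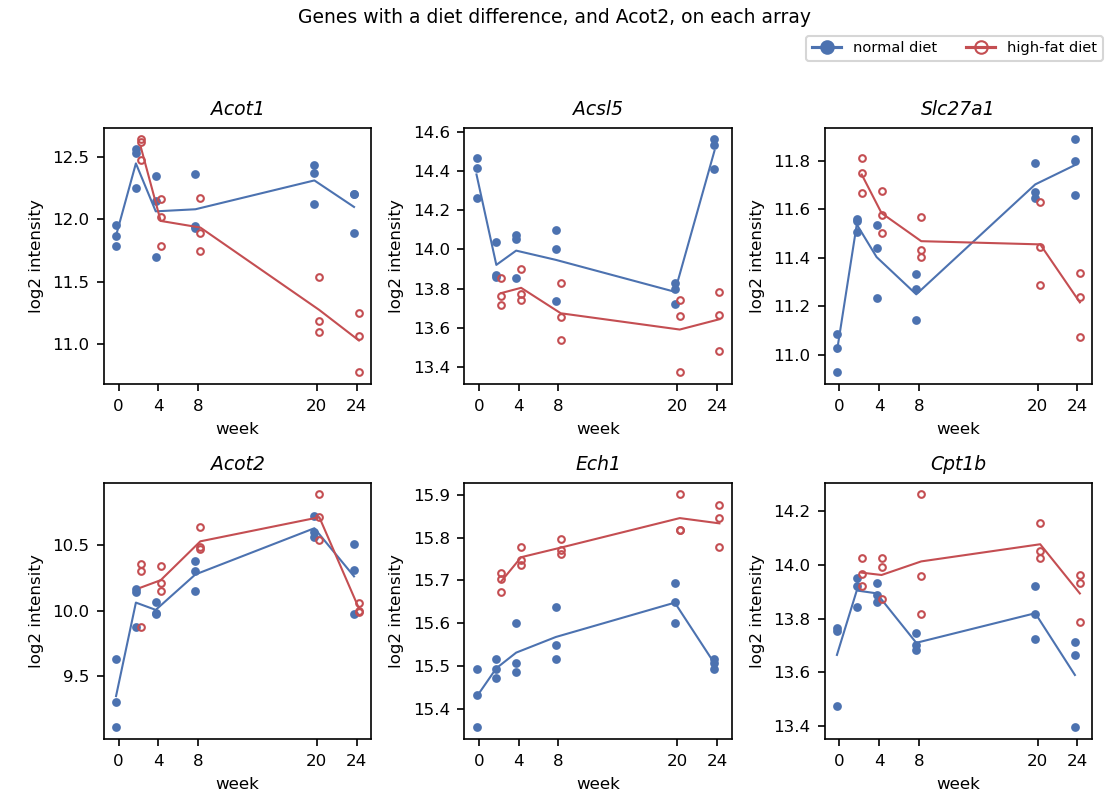
Log2 intensity on each array against week, for Acot1, Acsl5, Slc27a1, Acot2, Ech1 and Cpt1b, with filled points for normal diet, open points for high-fat diet and lines through the means of 3 arrays. The high-fat points of Acot1 leave the normal diet points at weeks 20 and 24, those of Acsl5 and Slc27a1 lie below at week 24, and those of Ech1 lie above at all 5 weeks.

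At week 24, 10 of 30 members passed, 7 higher and 3 lower, where 20.4% of all genes passed, 12.7% higher and 7.64% lower. Acot1 read 11.89, 12.20 and 12.20 on normal diet and 11.07, 11.25 and 10.77 on high-fat diet, a fall of 1.07 (0.48-fold, SE 0.16, limma adjusted p = 2.13e-05). Acsl5 read 14.54, 14.41 and 14.56 on normal diet and 13.66, 13.48 and 13.79 on high-fat diet, a fall of 0.86 (0.55-fold, SE 0.11, adjusted p = 1.05e-06). Slc27a1 read 11.80, 11.89 and 11.66 on normal diet and 11.24, 11.34 and 11.07 on high-fat diet, a fall of 0.57 (0.67-fold, SE 0.10, adjusted p = 7.36e-05). The diets did not overlap for any of the 3 genes, and each passed in all 43 other settings, the median shift and the week's 6 arrays alone among them. The second probe of Acot1 gave -1.33, and the other probes of Acsl5 gave -1.08 and -1.16.

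The 7 rises at week 24 were Ech1 (0.33, SE 0.06, adjusted p = 0.000214), Cpt1b (0.30), Acads (0.28), Cpt2 (0.26), Slc25a20 (0.25), Echs1 (0.23) and Etfa (0.16). None of the 7 passed after the median shift, where the share of called genes that were higher was 77.5% against 62.4%, and of the 7 Ech1 alone passed with the 6 arrays of week 24 by themselves. Both probes of Cpt1b (0.30 and 0.41), all 3 of Cpt2 (0.20 to 0.37) and all 3 of Etfa (0.16 to 0.42) were higher. Probes of 3 other genes differed in sign: Acads gave 0.28 and -0.13, Slc25a20 gave 0.25 and -0.34, and the hydratase Echs1 gave 0.23 and -0.48. Without the first normal diet array of week 24, 5 members passed, and 6 passed without normal diet array 2, or without high-fat array 2 or 3.

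Beside these, all 13 measured macrophage markers rose at week 24, with a list mean of 7.80 to 8.05 on normal diet arrays and 9.50 to 9.61 on high-fat arrays. Itgam, Itgax and Ctss of that list were detected on 0 arrays. White adipocyte markers (5 of 7 higher) averaged 7.47 to 7.82 and 8.54 to 8.62, and endothelial markers (9 of 15 higher) had group means of 9.57 and 9.95. Retn, Hoxc9 and Tcf21 of the white adipocyte list were detected on 0 arrays, and Mest, Sfrp5 and Hoxc8 on few, as given above. Brown adipocyte markers, a list that includes the member Cpt1b, averaged 12.44 to 12.48 on normal diet arrays and 12.47 to 12.57 on high-fat arrays, which overlapped. Of the 10 measured, 1 was called higher, Cpt1b itself, and 1 lower. General fat cell markers (7 of 7 measured) averaged 12.06 to 12.18 on normal diet arrays and 11.97 to 12.04 on high-fat arrays, which did not overlap, with a median difference of -0.13. Of the 7, 1 was called lower, the adipocyte transcription factor Cebpa (-0.50, adjusted p = 0.0204), and 0 higher. What these cells contribute to the members' differences was not tested.

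**Figure D3:**
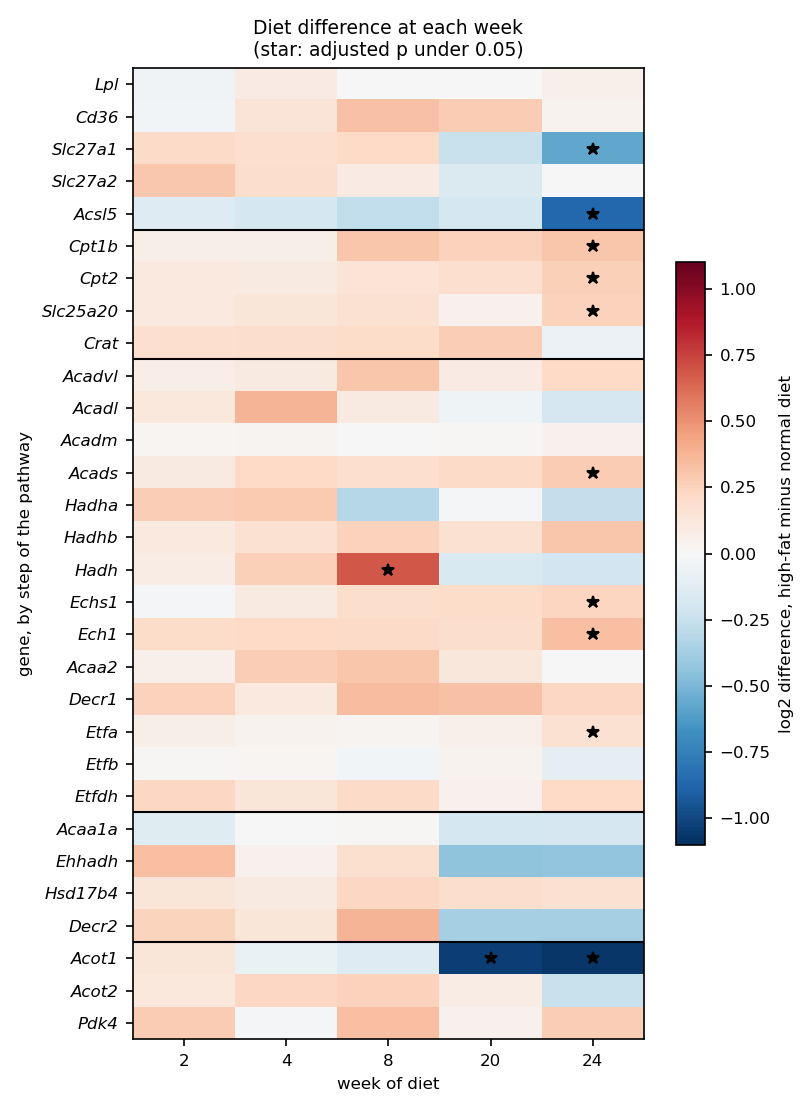
Diet difference (log2, high-fat minus normal diet, after quantile normalization) of 30 genes at weeks 2, 4, 8, 20 and 24, ordered by step, with a star where the adjusted p was under 0.05. Week 24 holds 10 stars, weeks 8 and 20 hold 1 each, and weeks 2 and 4 hold 0.

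The difference between late and early diet effects was tested directly as weeks 20 and 24 against weeks 2 and 4. Of 30 members 5 passed, all 5 more negative late, where 5.01% of all genes passed and 1.54% were more negative. They were Acot1 (-1.08, SE 0.16, limma adjusted p = 0.000248), Slc27a1 (-0.60, SE 0.10, adjusted p = 0.000368), Ehhadh (-0.63, adjusted p = 0.0379), Decr2 (-0.55, adjusted p = 0.0411) and Acsl5 (-0.36, adjusted p = 0.0489). After the median shift Acot1 and Slc27a1 passed, and without week 24 Acot1 alone did (-1.06, adjusted p = 0.0275). The call of Acot1 was kept in all 43 other settings and that of Slc27a1 was lost in 1, while those of Acsl5, Decr2 and Ehhadh were lost in 28, 21 and 17, many of them with 1 array left out. Skeletal muscle markers were also more negative late, with 17 of 17 estimates below 0, a median of -0.74 and 0 called (limma, 2 at an unadjusted p under 0.05). With the muscle list's mean as a covariate Decr2 (-0.55, adjusted p = 0.0753) and Ehhadh (-0.58, adjusted p = 0.0909) did not pass and the other 3 did. For Slc27a1 the diets were apart in opposite directions: at week 2 normal diet arrays read 11.56, 11.51 and 11.55 and high-fat arrays 11.75, 11.81 and 11.67, and at week 24 the order had turned as given above. Without week 24 its late against early difference was -0.44 (adjusted p = 0.112). For Acsl5 that difference was -0.03 without week 24.

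Any interaction of diet with week was called for 4 members (6.41% of all genes), namely Slc27a1 (F = 13.8, adjusted p = 0.000364), Acot1 (F = 12.2, adjusted p = 0.000767), Acsl5 (F = 7.81, adjusted p = 0.00982) and Hadh (F = 5.45, adjusted p = 0.0425). Without week 24, 0 members passed (limma, 6 at an unadjusted p under 0.05), and without the second high-fat array of week 24, 2 passed. The Hadh call was lost in 27 of 43 other settings. It did not pass after the median shift (F = 1.60, adjusted p = 0.322), with array weights or with the muscle covariate (F = 5.25, adjusted p = 0.0548).

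Most members differed between weeks. On normal diet 20 of 30 members differed over weeks (66.5% of all genes), and on high-fat diet 17 (64.4% of all genes), so the members' shares were near those of all genes. Without week 24 these counts were 13 and 8. The matching shares of all genes without week 24 are not given here, so whether the drop was general cannot be read from these counts. The smallest p on normal diet belonged to Hadh, Hadhb, Ehhadh and Slc27a2. For these 4 genes all 6 arrays of week 24 lay below all 27 other arrays, as they did for 555 genes (5.76% of all genes). The 6 arrays lay above the 27 for 0 members and for 450 of all genes. Whether the members differed from all genes in these counts was not tested.

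Hadhb, the thiolase subunit of the trifunctional protein, read 14.56, 14.60 and 14.65 at week 0, stayed at 14.49 or above on normal diet to week 20, and read 13.20, 13.52 and 13.65 at week 24. High-fat arrays read 14.83, 15.16 and 15.17 at week 20 and 13.60, 13.76 and 13.91 at week 24. Hadha, whose start faces that of Hadhb, read 9.53, 9.12 and 9.25 at week 0 and 9.87, 10.23 and 9.77 at week 24 on normal diet. From week 0 to week 24 on normal diet Hadhb fell by 1.15 (0.45-fold, SE 0.12, limma adjusted p = 1.3e-08) and Hadha rose by 0.65 (SE 0.18, adjusted p = 0.00347). From week 0 to week 20 Hadhb instead rose by 0.28 (adjusted p = 0.049), and Hadha (0.37, adjusted p = 0.122) did not pass. Each of the pair had 1 probe.

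Hadh rose, fell and rose again on normal diet before its lowest level at week 24. Its arrays read 7.65, 7.45 and 7.82 at week 0, and 8.83, 8.75 and 8.76 at week 2. They read 8.23, 8.43 and 8.40 at week 4, and 8.33, 8.18 and 8.25 at week 8. Then they read 9.54, 9.05 and 8.97 at week 20, and 7.27, 7.25 and 6.75 at week 24. High-fat arrays read 8.99, 9.10 and 8.96 at week 20 and 7.17, 6.77 and 6.69 at week 24, so both diets shared the low end. Week 20 was 1.54 above week 0 (adjusted p = 9.97e-08), and week 24 was 0.55 below it (SE 0.16, adjusted p = 0.0048). Without the third normal diet array of week 24 the latter did not pass (limma adjusted p = 0.0550).

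Ehhadh and Slc27a2 were also lowest at week 24, but neither passed week 24 against week 0 on normal diet. Ehhadh read 8.95, 8.81 and 9.04 at week 0, 10.17, 10.32 and 10.24 at week 20 on normal diet, and 8.51, 8.75 and 8.44 at week 24, with 7.94, 8.34 and 8.11 on high-fat diet at week 24. Slc27a2 read 12.60, 12.58 and 12.74 at week 0, 13.14, 13.17 and 13.10 at week 20 on normal diet, and 12.28, 12.49 and 12.39 at week 24, with 12.30, 12.49 and 12.38 on high-fat diet. The diets overlapped for Slc27a2 at week 24 and did not for Ehhadh.

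**Figure D4:**
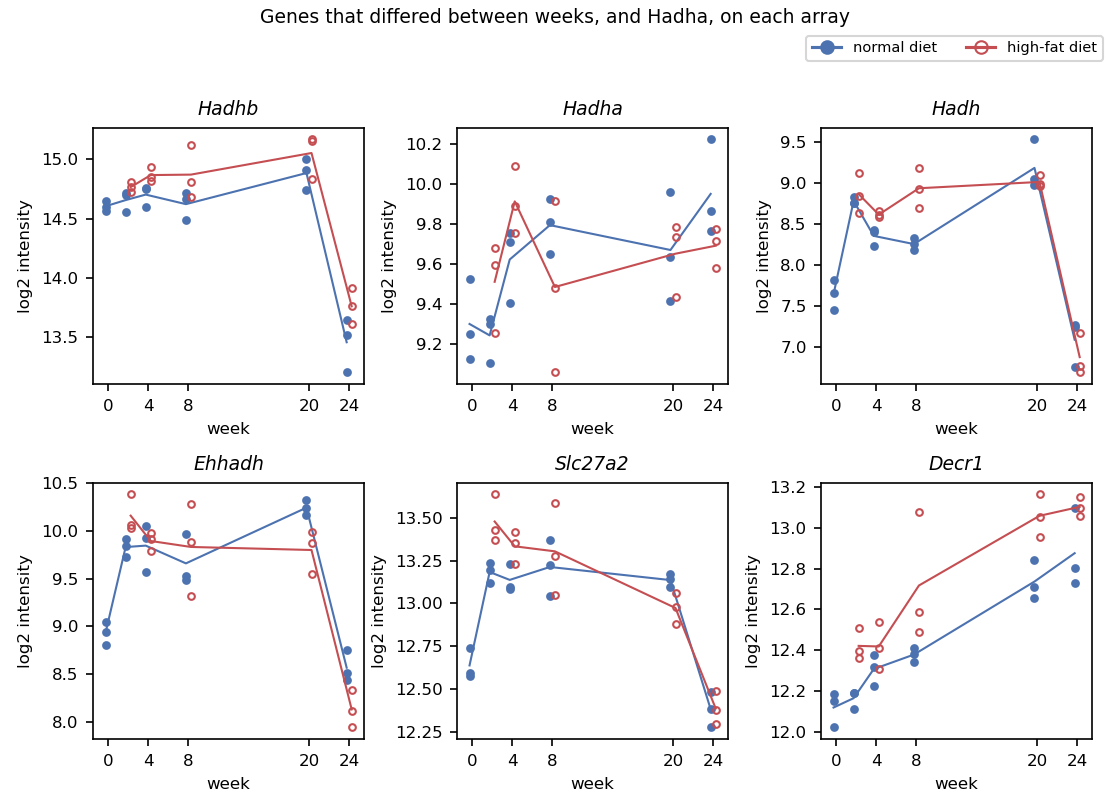
Log2 intensity on each array against week, for Hadhb, Hadha, Hadh, Ehhadh, Slc27a2 and Decr1, with filled points for normal diet, open points for high-fat diet and lines through the means of 3 arrays. Hadhb, Hadh, Ehhadh and Slc27a2 have their lowest points at week 24 in both diets, while Hadha and Decr1 do not.

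Between the ends of the normal diet course 12 members passed, 9 higher and 3 lower at week 24 than at week 0, where 48.3% of all genes passed, 24.1% higher and 24.2% lower. The rises were Acot2 (0.92, SE 0.14, adjusted p = 4.95e-06), Acaa2 (0.77), Slc27a1 (0.77), Decr1 (0.76), Hadha (0.65), Decr2 (0.58), Hsd17b4 (0.42), Etfdh (0.38) and Acaa1a (0.35), and the falls were Hadhb, Hadh and the hydratase Echs1 (-0.20). Acot2 read 9.11, 9.63 and 9.30 at week 0 and 10.51, 10.31 and 9.97 at week 24, with no overlap. The sign for Echs1 turned after the median shift (0.09), and its call was lost in 8 of 43 other settings, most of them with 1 array left out. With week 20 in place of week 24, 16 members were called higher and 1 lower, with a median difference of 0.34. Of all 9630 genes 1399 were then higher and 1716 lower, with a median of -0.03. From week 0 to week 20 Acaa1a (-0.04) and the hydratase Echs1 (-0.12, adjusted p = 0.204) did not pass. The muscle list was lowest at week 0, at 8.42 to 8.66 against 10.01 to 10.44 on the normal diet arrays of week 24. With that muscle mean as a covariate 11 of the 12 calls were kept, and Etfdh (0.38, adjusted p = 0.0682) did not pass. The Etfdh call was lost in 4 of 43 other settings, the covariate and the mean of its probes among them.

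Beyond the 32 genes, a list of 61 related pathway genes had 47 measured. Over all genes 27.1% passed the diet average, 15.4% higher and 11.7% lower. Of the 47 related genes 15 passed, 8 higher and 7 lower, so their shares were near those of all genes. The smallest p belonged to Oxct1, the ketone body transferase (0.30, SE 0.04), Abcd2, a peroxisomal transporter of very long-chain acyl-CoA (0.54, SE 0.07, adjusted p = 3.8e-06), Pdk1, another pyruvate dehydrogenase kinase (-0.35), and Acot3, a peroxisomal thioesterase (-0.60, SE 0.09, adjusted p = 2.01e-05). These 4 passed in the same direction after the median shift (0.18, 0.45, -0.46 and -0.66), where 2 of the 47 were higher and 13 lower. Like Acot1, Acot3 was lower at week 20 (-0.93, adjusted p = 0.00832) and week 24 (-1.29, adjusted p = 3.62e-05), with values of -0.35, -0.28 and -0.15 at weeks 2, 4 and 8 that did not pass. At week 24 Oxct1 (0.58), Pdk1 (-0.75), Acsl3 (-0.73), an acyl-CoA synthetase, and Acot3 had the smallest p of the related genes. From week 0 to week 24 on normal diet these were Acadsb, a branched short-chain dehydrogenase (-2.31), Hsd17b10, a mitochondrial hydroxyacyl-CoA dehydrogenase (-1.31), Abcd2 (2.14) and Acsl3 (1.24).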

How the data were processed

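The 33 arrays were grouped by the labels' diet and week. The submitters' processing notes name BeadStudio 3.1.3. The authors deposited intensities of 45281 probes, with unequal array medians and so apparently not normalized, and for each intensity a detection p-value. A second deposited table holds log2 values with the same distribution on every array, and it served as an alternative. Symbols came from the platform annotation: 34885 probes carried 1, 18 several and 10378 none.

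Intensities were background corrected with neqc of limma 3.58.1 in R 4.3.3, with control statistics inferred from detection p-values, an offset of 16, quantile normalization and log2. Of the probes, 17243 passed the detection filter. The linear model held 1 mean per group (22 residual degrees of freedom, 4.13 prior). P-values of limma's moderated t and F tests were adjusted over 9630 genes (Benjamini-Hochberg), and 0.05 was the threshold. The method was tested on simulated data. The number of arrays limits the precision.

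Members, gene lists and tests were chosen with earlier results of these data known. Every measured member has its diet average. Array values go to up to 3 members per step and 4 per week or course with the smallest adjusted p, and to Cpt1b, Lpl, Cd36, Pdk4, Acot1 and Acot2. Related genes named are up to 4 per comparison with the smallest adjusted p. Alternatives (48 settings) were no background correction, a median shift, the authors' values, no detection filter or a stricter one, the mean of probes, a replicate block, array weights, a muscle covariate, no week 24, single weeks alone and each array left out. Promoters and figures were made with Python 3.11.15 and matplotlib 3.10.9.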

Additional observations from a re-analysis of the deposited data

Results flagged for a closer look

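The diet difference of 5 members was not the same late (weeks 20 and 24) as early (weeks 2 and 4), by the test of that difference itself. Late minus early it was -1.08 log2 units for Acot1, -0.60 for Slc27a1, -0.63 for Ehhadh, -0.55 for Decr2 and -0.36 for Acsl5 (limma adjusted p from 0.000248 to 0.0489). The diet by week interaction, a test of any inequality among the 5 weekly diet differences, was called for Slc27a1 (F = 13.8), Acot1 (F = 12.2), Acsl5 (F = 7.81) and Hadh (F = 5.45). The late against early calls of Acsl5, Decr2 and Ehhadh were lost in 28, 21 and 17 of 43 other settings, that of Slc27a1 in 1 and that of Acot1 in 0, and the Hadh interaction was lost in 27. Of the 5 late against early differences, that of Acot1 passed without week 24, and of the interactions 0 passed without it (limma, 6 at an unadjusted p under 0.05).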

How the results depend on the processing

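Acot1 and Acsl5 passed the diet average in all 43 other settings, and 12 other members lost that call in 1 to 3 of them, Etfdh in 11, Etfa in 25 and Pdk4 in 30. After the median shift 4 members were called in the diet average, all lower and 0 higher (0 at an unadjusted p under 0.05), 5 at week 8, all lower while the rise of Hadh was lost, 3 at week 24 and 2 late against early, and Crat turned to -0.0020 (adjusted p = 0.983). Without background correction 1 member passed at week 2, 1 at week 4, 3 at week 8 and 2 at week 20; with the authors' values these counts were 1, 1, 2 and 2. Array weights gave 2 at week 2, 2 at week 4 and 17 at week 24. Detection on all 3 arrays of a group gave 2 at week 20, as did the mean of a gene's probes, which turned Echs1 (-0.13) and Slc25a20 (-0.046) at week 24. With no detection filter 2 passed late against early, and with the muscle covariate 3. The arrays of a single week alone gave 0 at week 8 (limma, 3 at an unadjusted p under 0.05) and 4 at week 24. Without week 24, 1470 genes passed the diet average, and of the members 1 passed late against early, 0 the interaction (6 at an unadjusted p under 0.05), 13 over normal diet weeks and 8 over high-fat weeks. Week 20 against week 0 turned Acaa1a (-0.037), Hadh (1.54) and Hadhb (0.28), and the median shift turned Echs1 in week 24 against week 0 (0.090). Other causes were not tested.

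With 1 array left out, members called ran from 14 to 18 for the diet average (11 to 15 higher, 3 lower), 0 to 1 at weeks 2 and 4, 0 to 3 at week 8, 1 to 5 at week 20, 5 to 14 at week 24, 2 to 6 late against early, 2 to 6 for the interaction, 16 to 22 over normal diet weeks, 14 to 19 over high-fat weeks and 10 to 14 for week 24 against week 0, and genes called from 2432 to 2899. The high counts at weeks 2, 4 and 20 came without the first high-fat array of week 8. Same-numbered arrays did not deviate together (correlations from -0.26 to 0.31, median 0.003), so the numbers were not taken as pairs, and a replicate block gave 16 members in the diet average.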
